A study of Mus musculus with 3 samples.

Results

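The 10 genes described here code for the proteins that store calcium in the sarcoplasmic reticulum of heart muscle cells, let it out, take it back up or remove it across the cell membrane. They were chosen by name (Ryr2, Trdn, Casq2, Casq1, Jph2, Hrc, Atp2a2, Pln, Sln and Slc8a1) among the 48617 assembled loci that had transcripts, in total RNA of C57BL/6 mouse heart ventricles at 3 stages. Embryos were taken at E10.5 and E13.5, named for the embryonic day, and adults at 8 weeks. There was 1 library for each stage, and neither treatment nor altered genotype was named for any of them. The number of hearts behind a library and their sex were not given in the sources used here. Each value below therefore comes from 1 library, so that differences between stages stand without a check on replicates or a p-value.

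In the heartbeat, calcium entering through channels of the surface membrane opens the ryanodine receptor, which releases the calcium stored in the sarcoplasmic reticulum onto the contractile filaments. Calcium is then pumped back by the sarcoplasmic reticulum calcium ATPase, whose activity small membrane proteins restrain, or leaves the cell through the sodium-calcium exchanger. In the early embryonic heart the sarcoplasmic reticulum is sparse and the cells lean more on calcium crossing the surface membrane. Calsequestrin, triadin, junctophilin and the histidine-rich calcium-binding protein belong to the release site: they hold calcium in the lumen, tie the store to the channel, or hold the store close to the surface membrane.

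The names were found at 32 loci. Of these, 10 held transcripts on the strand of the reference gene, 1 for each gene, and none of the 10 joined a second gene. The other 22 were unspliced loci on the opposite strand that carried a member's name only through overlap, 20 at Trdn, 1 at Pln and 1 at Casq1, and they were kept apart from the levels of the genes. Levels are FPKM, fragment numbers scaled to exon length and to the depth of the library. This scaling does not remove differences in the make-up of the libraries or a bias with transcript length. Levels are compared between genes and between libraries with that limit. A change is the difference of log2(FPKM + 1) between 2 libraries, a scale that understates the change of low values, and a gene was counted as higher or lower past 2 on that scale. Changes were read against 12569 loci of protein-coding genes that reached 1 FPKM in 1 library or more, called mRNA loci here. Judged by the smallest steps of the values, 1 FPKM over 1 kb stood for about 13.8 fragments in the E10.5 library, 26.7 in that of E13.5 and 13.8 in the adult library. The mRNA loci held 56.5%, 53.5% and 74.4% of the summed FPKM in these libraries. Cardiomyocyte markers (Tnnt2, Actc1, Actn2 and 7 others) were all at 1 FPKM or more in all 3 libraries and summed to 10631, 16206 and 23056 FPKM in stage order. Myl2, the ventricular myosin light chain, stood at 7790, 12217 and 11568 FPKM. The list of 4 ventricular markers to which it belongs did not move as a whole. Irx4 (23.98, 21.52 and 7.604 FPKM) and Hey2 (43.09, 73.22 and 5.384) were lowest in the adult. Kcnip2 (2.739, 0.1751 and 26.28) was highest there.

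The promoters of 4 of the genes are printed because these genes carry the main contrasts: Pln had the highest level, Casq2 and Casq1 moved in opposite directions, and Slc8a1, the exchanger, is set against the pump. Each run holds the 250 bases before the RefSeq start of the gene on GRCm38.p6, read 5′ to 3′ on the strand of the gene. Capitals mark 3 motifs on either strand. They are TATAAA (the core of the TATA box), AGATAA (a motif bound by GATA factors, which reads TTATCT on the other strand) and CATTCC (the core motif of TEAD factors).
Pln, chr10:53337436-53337685, plus strand: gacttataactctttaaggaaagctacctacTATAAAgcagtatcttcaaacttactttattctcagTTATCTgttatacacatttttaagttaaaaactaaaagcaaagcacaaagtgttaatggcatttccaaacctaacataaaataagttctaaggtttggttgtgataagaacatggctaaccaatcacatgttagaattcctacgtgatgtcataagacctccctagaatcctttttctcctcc
Casq2, chr3:102086165-102086414, plus strand: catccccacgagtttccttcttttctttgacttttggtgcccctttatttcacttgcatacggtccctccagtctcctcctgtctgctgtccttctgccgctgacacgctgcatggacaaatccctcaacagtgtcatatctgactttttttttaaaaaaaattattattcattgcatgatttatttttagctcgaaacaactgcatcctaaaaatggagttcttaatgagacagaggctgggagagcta
Casq1, chr1:172219896-172220145, minus strand: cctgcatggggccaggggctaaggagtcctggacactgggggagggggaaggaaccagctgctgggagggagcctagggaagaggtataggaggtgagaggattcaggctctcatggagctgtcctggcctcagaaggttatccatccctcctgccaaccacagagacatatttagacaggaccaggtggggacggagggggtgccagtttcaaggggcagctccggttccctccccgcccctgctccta
Slc8a1, chr17:81738388-81738637, minus strand: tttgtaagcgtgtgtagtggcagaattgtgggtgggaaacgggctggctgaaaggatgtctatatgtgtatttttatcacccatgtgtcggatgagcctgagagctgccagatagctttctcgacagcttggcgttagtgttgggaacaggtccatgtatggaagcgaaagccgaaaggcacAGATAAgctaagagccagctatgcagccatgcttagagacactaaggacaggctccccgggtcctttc

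RefSeq promoter sequences were matched for 7 of the 10 genes, without Atp2a2, Sln and Trdn. TATAAA was found in 1 of the 7, Pln, and in 12.4% of 32851 promoters of the same length. In Pln it lay near the 5′ end of the run, far from the start of the gene. AGATAA was found in Pln and Slc8a1, against 9.99% of all promoters. CATTCC was found in none of the 7 and in 12.6% of all. A pair of further motifs, not marked in the runs, was counted as well. CANNTG, the E-box, lay in all 7 and in 66.2% of all promoters, and AGGTCA, the nuclear receptor hexamer, lay in Ryr2 and Jph2 and in 14% of all. The letters are a description of these windows and show no binding. The nearest assembled start was the RefSeq start itself for Ryr2, Casq1, Jph2, Hrc and Pln. It lay 10 bp away for Slc8a1 and 95 bp away for Casq2. Other starts existed: Ryr2 had 5 assembled start sites, and Casq2, Casq1, Jph2 and Slc8a1 had 2 each. The assembled loci of Casq2 (from chr3:102085916) and Slc8a1 (to chr17:81738643) reached upstream past the printed windows.

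From E10.5 to the adult, the pump Atp2a2, its inhibitor Pln and the luminal proteins Casq2 and Hrc were higher, whereas Casq1 and Sln were lower. Thus 4 of the 10 genes were higher by 2 or more (Casq2, Pln, Hrc and Atp2a2), against 5.59% of the mRNA loci, and 2 were lower by as much (Casq1 and Sln), against 8.1%. Ryr2 and Trdn lay just under the threshold with changes of 1.93 and 1.90, and Atp2a2 was the lowest of the genes above it with 2.86. The median change of the 10 genes was 1.91, while that of the mRNA loci was -0.40. Rescaling the libraries by median-of-ratios factors moved the mRNA median to -0.05. Under that scaling Ryr2 (2.34) and Trdn (2.31) passed as well, so that 6 genes were higher and 2 lower, beside 7.86% and 6.09% of the mRNA loci. The 10 genes together made up 0.405% of the FPKM of the mRNA loci at E10.5, then 0.303% at E13.5 and 2.47% in the adult. Markers of other cell types also differed between the libraries. Erythroid markers summed to 7127, 17872 and 152 FPKM and smooth muscle markers to 1325, 1234 and 209. Fibroblast markers summed to 226, 442 and 499 FPKM and endothelial markers to 191, 121 and 207. The part of these cell types in the shares was not tested. The erythroid sum was mostly globin, with Hbb-y at 4356, 15112 and 2.87 FPKM, whereas Alas2 was at 18.2, 34.1 and 19.6. From E10.5 to E13.5 Hbb-y, Hba-a1 and Alas2 rose, whereas Hba-x and Hbb-bh1 fell. The smooth muscle sum was mostly Acta2 (1090, 836 and 124 FPKM), and the list did not move as a whole. Acta2, Tagln and Cnn1 were lowest in the adult, whereas Myh11 (0.112, 0.893 and 18.1) and Smtn (14.6, 8.25 and 21.9) were highest there. In bulk RNA, more cells of a type and more RNA of a gene per cell cannot be told apart.

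**Figure D1:**
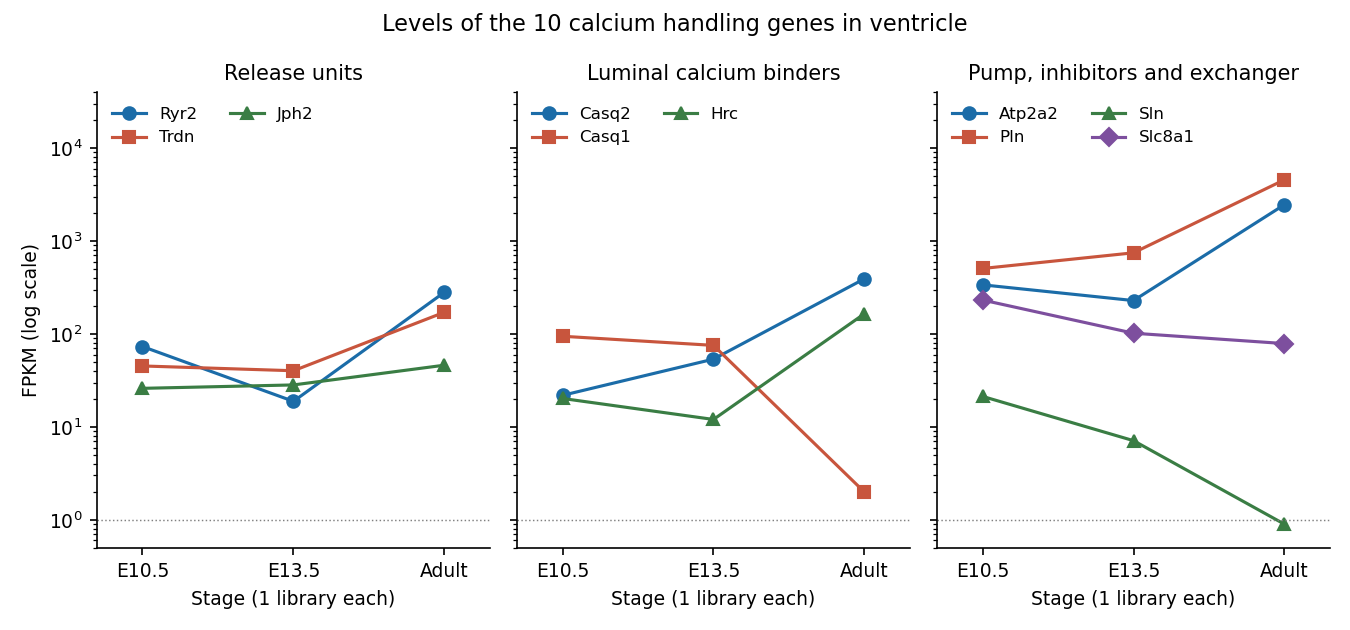
Levels of the 10 genes in the 3 libraries, in FPKM on a log axis, with the genes split by role into 3 panels. Each point is 1 library and the dotted line marks 1 FPKM. In the adult library Pln and Atp2a2 stand at 4551 and 2456 FPKM, while Casq1 and Sln are at 1.99 and 0.898.

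Ryr2, the ryanodine receptor of the heart and the pore through which the store is emptied (chr13:11549825-12106945, minus strand), stood at 73.1 FPKM at E10.5, then 18.8 at E13.5 and 281 in the adult. E13.5 was thus the lowest library, and the adult level was 3.84-fold that of E10.5 and 14.9-fold that of E13.5. The change from E10.5 to E13.5 was -1.90, at percentile 0.366 of the mRNA loci. Its RefSeq transcript runs to 105 exons and 16813 nt. Between the embryonic libraries the level moved with transcript length over all mRNA loci: the median change was 0.49 for the 2387 loci whose longest transcript was at most 2000 nt and -0.53 for the 453 loci above 12000 nt, the class that held Ryr2, Casq2, Jph2 and Slc8a1. Casq2 and Jph2 were in that class through assembled transcripts of 13148 and 17171 nt. Their longest reference transcripts had 2459 and 4235 nt. Less the median of its length class, the change of Ryr2 from E10.5 to E13.5 was -1.37. The part of transcript length in it was not tested.

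Trdn codes for triadin, which links calsequestrin to the ryanodine receptor (chr10:33083052-33480362, plus strand). It stood at 45.2, 40.2 and 171 FPKM in the 3 libraries, always given here from E10.5 through E13.5 to adult. The embryonic libraries lay close to each other, with a change of -0.17 as deposited and 0.10 once the median of its length class was subtracted, and the adult was 4.26-fold above E13.5. Jph2, junctophilin 2, which holds the sarcoplasmic reticulum next to the surface membrane (chr2:163336242-163397993, minus strand), moved little. Its levels were 26.0, 28.3 and 46.1 FPKM, and its change from E10.5 to the adult of 0.80 lay at percentile 82.4 of the mRNA loci. From E10.5 to E13.5 its change was 0.12 as deposited and -0.03 after median-of-ratios scaling, so no direction can be given.

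The calsequestrins bind calcium inside the store, Casq2 being the cardiac form and Casq1 the form of fast skeletal muscle. Casq2 (chr3:102085916-102162756, plus strand) had 21.8 FPKM at E10.5, then 53.5 at E13.5 and 392 in the adult. As deposited, it was the only gene of the 10 that gained more than 1 at each step, and its change from E10.5 to the adult of 4.10 lay at percentile 99.5 of the mRNA loci. Casq1 (chr1:172209894-172219895, minus strand) went the other way, with 94.3, 75.3 and 1.99 FPKM. The embryonic libraries were near each other and the adult was 47.4-fold below E10.5. The adult value rested on about 51.4 fragments, for which the 95% counting interval (exact Poisson) is 1.48 to 2.61 FPKM. Such intervals cover counting error only, and the fragment numbers behind them are themselves approximate.

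At E10.5 the ventricle library thus held 4.32 times as much Casq1 as Casq2 per length, at E13.5 1.41 times, and in the adult 0.00508 times. The order of this pair turned around between E13.5 and the adult. Markers of fast skeletal muscle were looked at beside Casq1. Of 9 such genes, 4 were at 1 FPKM or more in each embryonic library and 3 in the adult, and the list summed to 54.0, 65.4 and 12.1 FPKM. The fast myosin heavy chains Myh1, Myh2 and Myh4 were all under 0.1 FPKM, with Myh2 listed at 0 at E13.5, and Tnnc2, the fast skeletal troponin C, was listed at 0 at E10.5. Other genes of the list were present: Tnni2 was at 17.5, 51.0 and 1.52 FPKM, Mylpf at 29.9, 8.69 and 1.46. Tnnt3 was at 4.21, 3.47 and 0.563 and Actn3 at 2.16, 1.30 and 0.0398. Mybpc2, at 0.172, 0.699 and 8.42, was highest in the adult and made up most of the adult sum. Casq1 alone was above the whole list at E10.5 (94.3 against 54.0 FPKM).

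Hrc, the histidine-rich calcium-binding protein of the lumen (chr7:45335269-45338972, plus strand), stood at 20.2, 12.0 and 165 FPKM. It was lowest at E13.5, and its rise to the adult was 13.7-fold from E13.5 and 8.16-fold from E10.5. Against Casq2, the other luminal protein higher in the adult, it changed from 0.926 to 0.224 and 0.421. The ratio was thus highest at E10.5 and lowest at E13.5.

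Atp2a2 codes for SERCA2, the pump that refills the store (chr5:122450460-122502262, minus strand). Its levels were 337, 228 and 2456 FPKM, which placed it 94th, 239th and 10th among the mRNA loci. The adult library held 7.28-fold the E10.5 level, and E13.5 was again the lowest of the libraries. Pln, phospholamban, the small protein that restrains this pump until it is phosphorylated (chr10:53337686-53345999, plus strand), stood at 505, 745 and 4551 FPKM. It ranked 57th, 58th and 4th, was the highest of the 10 genes in every library, and rose 9.0-fold from E10.5 to the adult. Pln and Atp2a2 together made up 61.2%, 74.3% and 86.0% of the summed FPKM of the 10 genes. The ratio of Pln to Atp2a2 was 1.5 at E10.5, rose to 3.26 at E13.5 and came back to 1.85 in the adult, so the inhibitor transcript was the more abundant in all 3 libraries and most so at E13.5.

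Sln, sarcolipin, restrains the pump in atrial and skeletal muscle (chr9:53850251-53853849, plus strand). It had 21.3 FPKM at E10.5, then 7.11 at E13.5 and 0.898 in adult ventricle, the only gene of the 10 that ended under 1 FPKM. With a transcript of 520 nt, the adult value rested on about 6.44 fragments, with a 95% counting interval of 0.344 to 1.90 FPKM. The E13.5 interval was 5.77 to 8.66. Both cover counting error only, so they are no test between the stages. For each Sln fragment per length there were 15.8 of Atp2a2 at E10.5, but 32.1 at E13.5 and 2736 in the adult, and the adult number carries the same imprecision. Atrial markers were low in the same library. The atrial list of 5 genes summed to 6424, 6789 and 43.9 FPKM, with Myl7 at 2453, 1935 and 0.719, Myl4 at 2164, 2440 and 1.42 and Nppa at 1744, 2385 and 37.9. Bmp10 was at 57.2, 26.2 and 0.0610 and Nr2f2 at 5.85, 4.03 and 3.88. From E10.5 to E13.5, where Sln went down 2.99-fold, Bmp10, Nr2f2 and Myl7 were lower and Myl4 and Nppa higher. The part of atrial tissue or of an atrial programme in the change of Sln was not tested.

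Slc8a1, the sodium-calcium exchanger that carries calcium out of the cell (chr17:81372749-81738643, minus strand), was the third highest of the genes in the embryo. Its levels were 231, 102 and 78.7 FPKM. Its change between E10.5 and the adult was -1.54, or -1.13 after median-of-ratios scaling, and lay at percentile 13.9 of the mRNA loci. From E13.5 to the adult it was -0.37 as deposited and 0.20 after median-of-ratios scaling, so no direction can be given for that step. Set against the pump, the exchanger went from 0.686 at E10.5 through 0.446 at E13.5 to 0.0320 in the adult. The transcript of the pump thus exceeded that of the exchanger 1.46-fold, 2.24-fold and 31.2-fold.

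**Figure D2:**
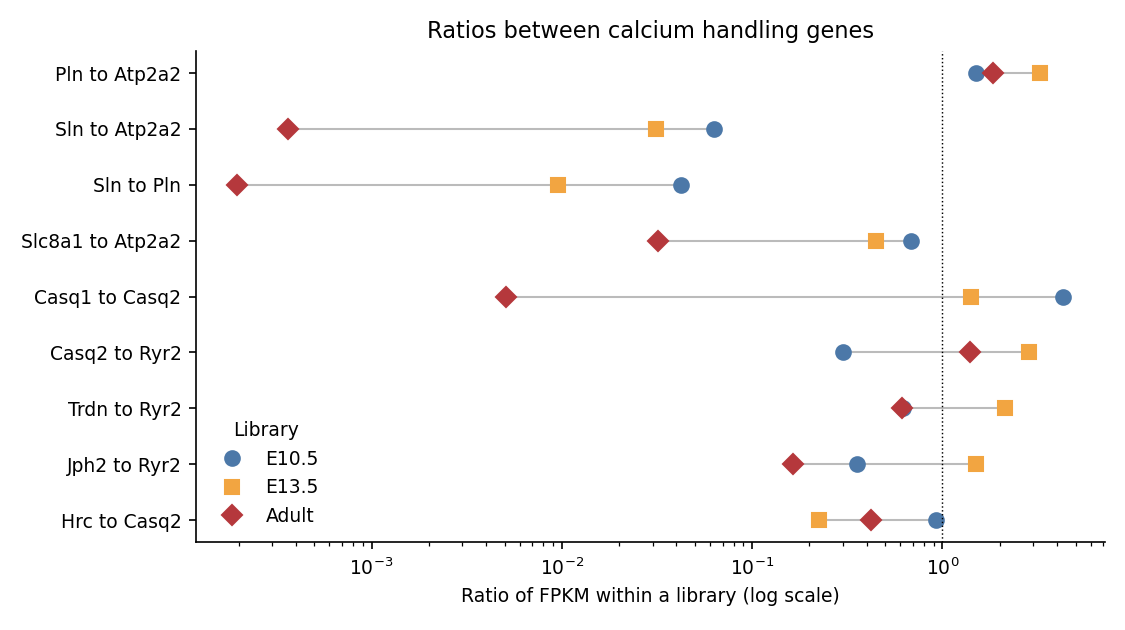
Ratios of FPKM between pairs of the genes within each library, on a log axis, with the dotted line at equal levels. Each marker is 1 library. The ratio of Casq1 to Casq2 went from 4.32 at E10.5 to 0.00508 in the adult, and that of Slc8a1 to Atp2a2 from 0.686 to 0.0320, while that of Trdn to Ryr2 was 0.618 and 0.609.

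A ratio within a library does not depend on how libraries are scaled to each other, though it does depend on a bias with transcript length. Per Ryr2, Trdn stood at 0.618 at E10.5, reached 2.13 at E13.5 and returned to 0.609 in the adult. The outer stages were alike and E13.5 stood apart, the library in which Ryr2 was low. The ratio of Jph2 to Ryr2 was 0.355, 1.5 and 0.164, and that of Casq2 to Ryr2 was 0.299, 2.84 and 1.40. In the adult ventricle, then, calsequestrin transcript outnumbered that of its channel per length, and junctophilin transcript was 6.09-fold below it.

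The step from E13.5 to the adult held most of the difference. Between these libraries 6 of the 10 genes were higher by 2 or more (Ryr2 3.83, Hrc 3.67, Atp2a2 3.42, Casq2 2.85, Pln 2.61 and Trdn 2.06), against 4.41% of the mRNA loci, and 2 were lower (Casq1 -4.67 and Sln -2.10), against 9.88%. After median-of-ratios scaling the same 6 were higher and Casq1 alone was lower, beside 7.12% and 6.11% of the mRNA loci, with Sln at -1.72. Less the median of its length class Sln was at -1.23. This comparison shares the adult library with that of the adult against E10.5, so the values of the pair of comparisons are not independent.

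From E10.5 to E13.5 none of the 10 genes was higher or lower by 2, against 0.851% and 0.247% of the mRNA loci. At the lower threshold of 1, Casq2 was higher (1.26), against 5.89% of the loci, and Ryr2 (-1.90), Sln (-1.46) and Slc8a1 (-1.18) were lower, against 4.85%. Rescaled without globin and mitochondrial loci, Ryr2 reached -2.20 and was then the only gene past 2, beside 0.629% of loci higher and 0.636% lower. The 10 genes had a median change of -0.44, with 7 below 0, while the mRNA median was 0.17.

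**Figure D3:**
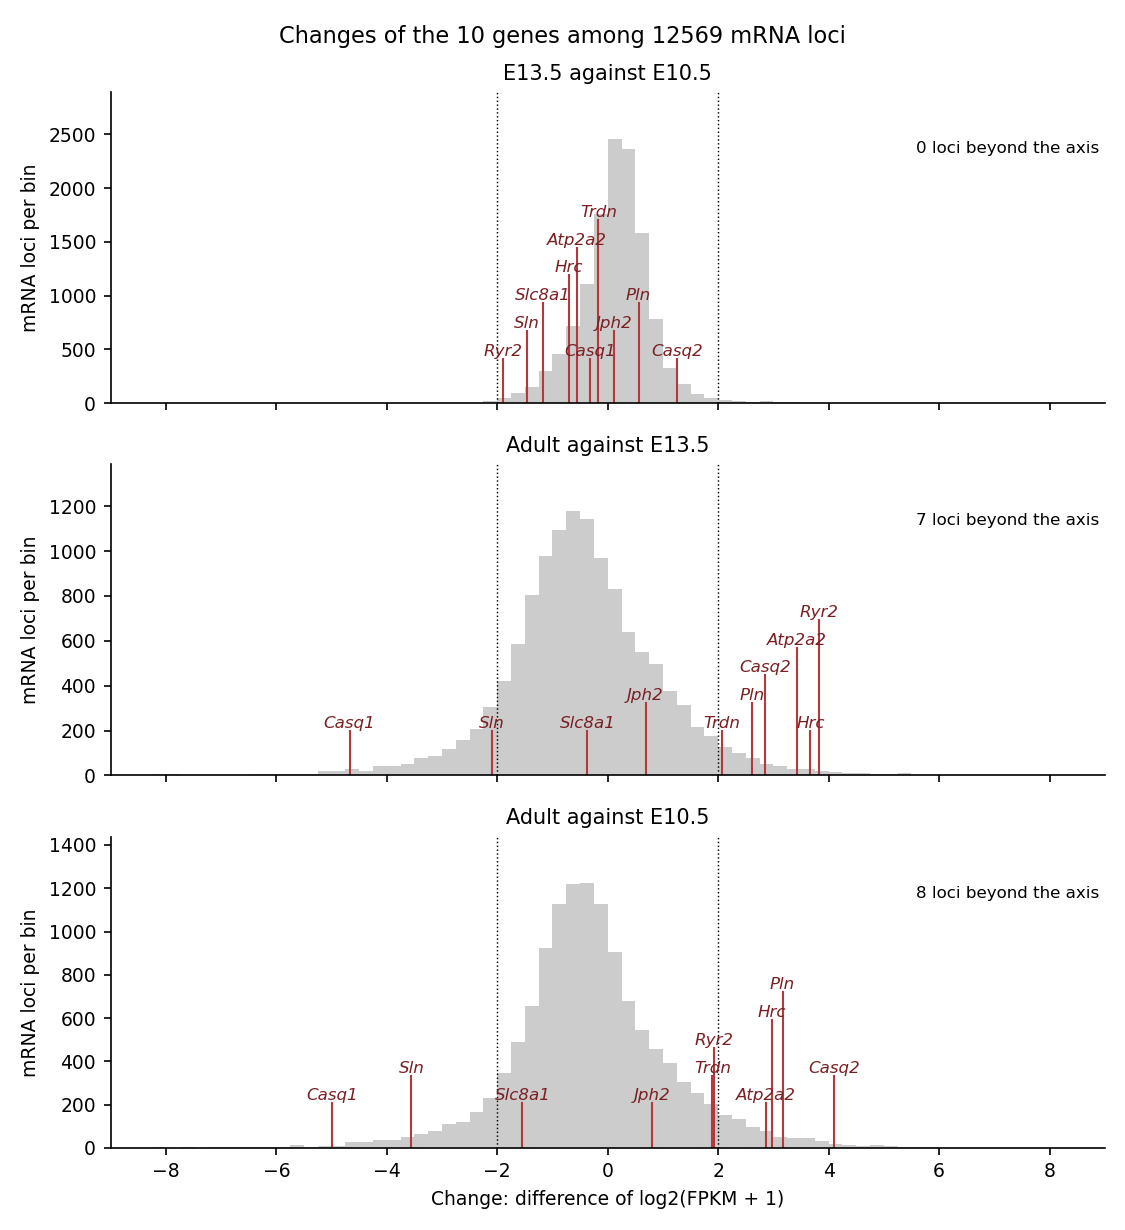
Changes of the 10 genes (red lines, whose heights only keep the names apart) over the distribution of the 12569 mRNA loci (grey bars, loci per bin) in the 3 comparisons. The x axis is the difference of log2(FPKM + 1) and dotted lines mark 2 in either direction. Between E10.5 and E13.5 all 10 genes lie between -1.90 and 1.26, while in the adult 6 lie above 2 against E13.5 and Casq1 lies at -4.67.

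Within the embryo the order of levels was Pln, Atp2a2, Slc8a1 and Casq1 in both libraries, from 505 down to 94.3 FPKM at E10.5 and from 745 down to 75.3 at E13.5. At E10.5 Casq2 (21.8), Sln (21.3) and Hrc (20.2) differed from each other by less than 1.1-fold. In the adult the order was Pln, Atp2a2, Casq2, Ryr2, Trdn, Hrc, Slc8a1, Jph2, Casq1 and Sln. There Atp2a2 lay 6.27-fold above Casq2 and Jph2 23.2-fold above Casq1, whereas Trdn and Hrc were 1.04-fold apart. With 1 library a stage the spread of these levels is not known, and neighbours this close are given no order.

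The levels were also set against the cardiomyocyte markers of the same library. The median log2(FPKM + 1) of 10 such markers was 9.18 at E10.5, then 10.36 at E13.5 and 11 in the adult. For the 10 genes, the median level relative to it was -3.31, -4.80 and -3.60, and relative to Actn2 alone -2.13, -2.42 and -1.43, so the direction from E10.5 to the adult turned with the marker. Relative to the list, adult less E10.5 came to 2.28 for Casq2, 1.34 for Pln, 1.14 for Hrc and 1.04 for Atp2a2. These genes were thus still higher in the adult, by less. Ryr2 was at 0.10 and Trdn at 0.07, against 1.10 and 1.07 relative to Actn2 alone. Jph2 was at -1.02, against -0.02, and Slc8a1, Sln and Casq1 were at -3.37, -5.38 and -6.82.

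Other genes of calcium handling were read in the same way. From a list of 56 genes in 6 groups, 54 had a locus and 47 reached 1 FPKM in at least 1 library. Between E10.5 and the adult 3 of the 47 were higher by 2 or more and 2 lower, beside 5.59% and 8.1% of the mRNA loci, and the median change was -0.27 against -0.40. For this comparison and threshold the counts and the median lay near those of all mRNA loci. Between E13.5 and the adult 5 were higher and 2 lower, beside 4.41% and 9.88%, with a median of -0.20 against -0.50. Between the embryonic libraries none passed, beside 0.851% and 0.247%, with a median of 0.10 against 0.17. Past 1, the adult had 13 of the 47 higher and 6 lower than E10.5, beside 14.8% and 27.3% of the mRNA loci. At that threshold the share of the list was above that of all mRNA loci for higher and below it for lower. The counts of the single groups below are those past 2 from E10.5 to the adult, read against 5.59% of the mRNA loci higher and 8.1% lower.

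**Figure D4:**
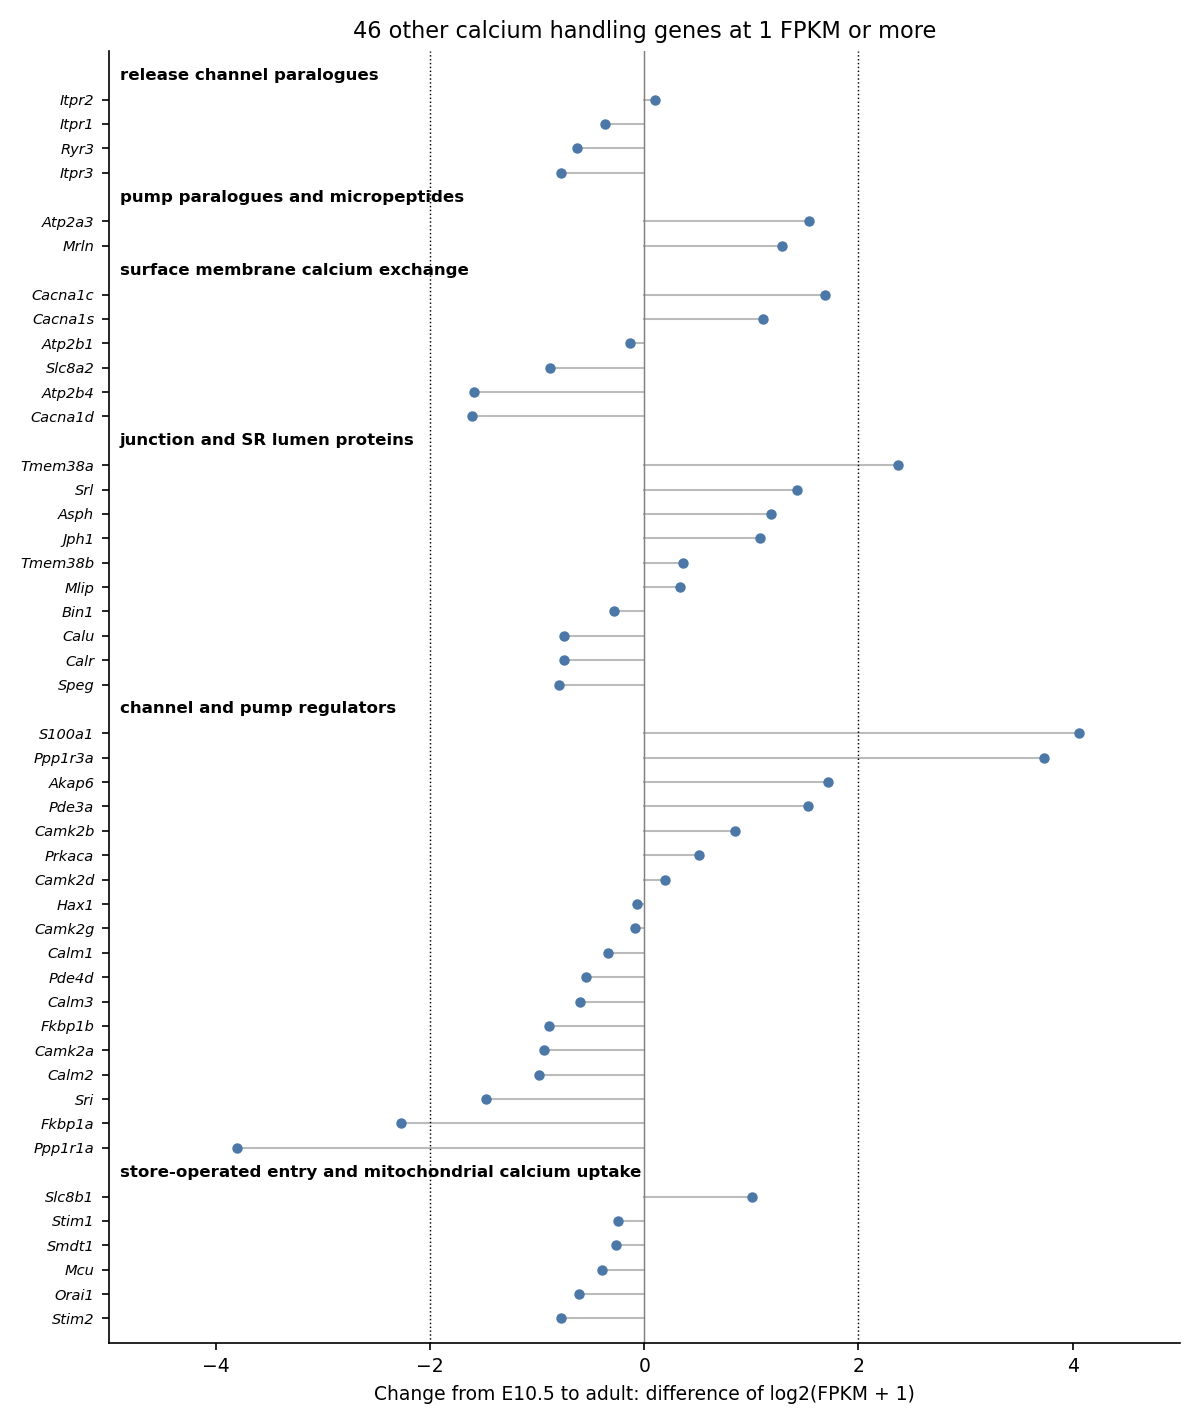
Changes from E10.5 to the adult of 46 of the 47 listed pathway genes that reached 1 FPKM, grouped by role and ordered within each group. The x axis is the difference of log2(FPKM + 1) and dotted lines mark 2 in either direction. S100a1, Ppp1r3a and Tmem38a lie above 2, Fkbp1a and Ppp1r1a below -2.

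Among regulators of the channel and the pump, 2 of 18 were higher by 2 from E10.5 to the adult and 2 lower. S100a1, a calcium sensor that binds both the ryanodine receptor and SERCA2, was at 88.1, 214 and 1485 FPKM, a change of 4.06. Ppp1r3a, which targets protein phosphatase 1 to glycogen and the sarcoplasmic reticulum, was at 6.06, 6.15 and 92.7 FPKM, a change of 3.73. Ppp1r1a, an inhibitor of protein phosphatase 1, was listed at 19.9, 25.4 and 0.498 FPKM, and Fkbp1a, the small immunophilin FKBP12, at 198, 65.2 and 40.2. These 4 genes were the ones past 2 in the group, and Ppp1r3a and Fkbp1a were named after their values were seen. Fkbp1b, the immunophilin that binds the cardiac ryanodine receptor, was at 1.83, 7.21 and 0.528 FPKM. Calm3, the highest of the calmodulin genes in any library, was at 144, 270 and 94.3 FPKM.

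Of the junction and lumen proteins 1 of 10 passed, Tmem38a, the TRIC-A potassium channel that balances charge when calcium leaves the store. It was at 27.1, 24.2 and 144 FPKM, a change from E10.5 to the adult of 2.36. Srl, sarcalumenin, a luminal calcium binder, was at 126, 156 and 341 FPKM. Calr, calreticulin, the calcium binder of the endoplasmic reticulum, had the highest level of the group and was lowest in the adult, with 413, 352 and 245 FPKM. Its locus joins 2 genes, so the value is not that of Calr alone.

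At the surface membrane none of 6 genes passed from E10.5 to the adult. Cacna1c, the pore of the cardiac L-type calcium channel that triggers release, was at 16.0, 8.39 and 53.7 FPKM, a change of 1.68 from E10.5 and 2.54 from E13.5. Cacna1d, a second L-type pore known from pacemaker and atrial cells, was at 14.2, 7.89 and 3.98. The pair thus went from near parity at E10.5 to a wide gap in the adult. Atp2b1, a plasma membrane calcium pump, was at 32.7, 22.5 and 29.6 FPKM.

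Among the paralogues of the release channel, Itpr1, an inositol trisphosphate receptor, was at 28.7, 12.5 and 22.1 FPKM, and Itpr2 at 8.71, 6.80 and 9.40. Ryr3 (1.36, 2.56 and 0.524) and Itpr3 (3.02, 1.69 and 1.35) were low throughout, and Ryr1, the skeletal muscle receptor, stayed under 0.1 FPKM in all libraries. The skeletal muscle pump Atp2a1 was under 1 FPKM in all 3 libraries as well, so of the pair Casq1 and Ryr1, both known from skeletal muscle, Casq1 alone was abundant in the embryonic ventricle. Atp2a3, a pump of non-muscle cells, was at 0.901, 1.67 and 4.51 FPKM. Mrln, the skeletal muscle micropeptide myoregulin, was listed at 0, 0.217 and 1.43. In the group of store-operated entry and mitochondrial uptake, none of 7 passed. Smdt1, a subunit of the mitochondrial uniporter, was the highest with 119, 225 and 98.6 FPKM, and Slc8b1, the mitochondrial sodium-calcium exchanger, was at 1.51, 1.88 and 4.02.

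Strit1 codes for DWORF, a micropeptide that relieves SERCA2 of its inhibitors, and no locus carried its name. An unnamed locus at chr3:63481127-63483902 on the minus strand had 3 introns, each with exon ends of RefSeq Strit1, and was singled out after its values were seen. It stood at 11.7, 1.35 and 17.4 FPKM over a transcript of 251 nt, which amounts to about 40.4, 9.06 and 60.2 fragments. Like Ryr2, Hrc and Atp2a2 it was lowest at E13.5.

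Trdn held more assembled loci inside it than any other of the 10 genes. The long non-coding transcript D830005E20Rik lies on the opposite strand within the gene (chr10:33193793-33256422), and it started 110 bp from the nearest downstream Trdn start. Of the 19 assembled Trdn transcripts, 11 began at that start or beyond and 8 before it, and 17 of the 19 had junctions that were not in the reference. D830005E20Rik was at 1.14, 0.178 and 46.7 FPKM, and 5 of its distinct assembled exons overlapped assembled exons of Trdn. Per Trdn, D830005E20Rik stood at 0.0253 at E10.5, went down to 0.00444 at E13.5 and came to 0.273 in the adult. The opposite-strand transcript was thus far below Trdn in the embryo and nearer to it in the adult.

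The 20 unspliced loci with the Trdn name lay on that same strand, 17798 nt in all, each inside introns of both Trdn and D830005E20Rik and on no exon of either. Their median was 1.07 FPKM at E10.5, 0 at E13.5, where 11 were listed at 0, and 24.1 in the adult, where they ranged from 6.72 to 69.2. The adult library was above the others at all 20. A further 14 unspliced loci lay on the Trdn strand in the same stretch (13213 nt), with medians of 1.96, 0.0555 and 0.276 FPKM, and 12 of them were at 1 FPKM or more at E10.5. The strands thus differed in which library was highest, the adult on the strand of D830005E20Rik and E10.5 on the strand of Trdn. The sum over all loci named Trdn mixes both strands: it gave a change from E10.5 to the adult of 3.39 in place of 1.90.

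**Figure D5:**
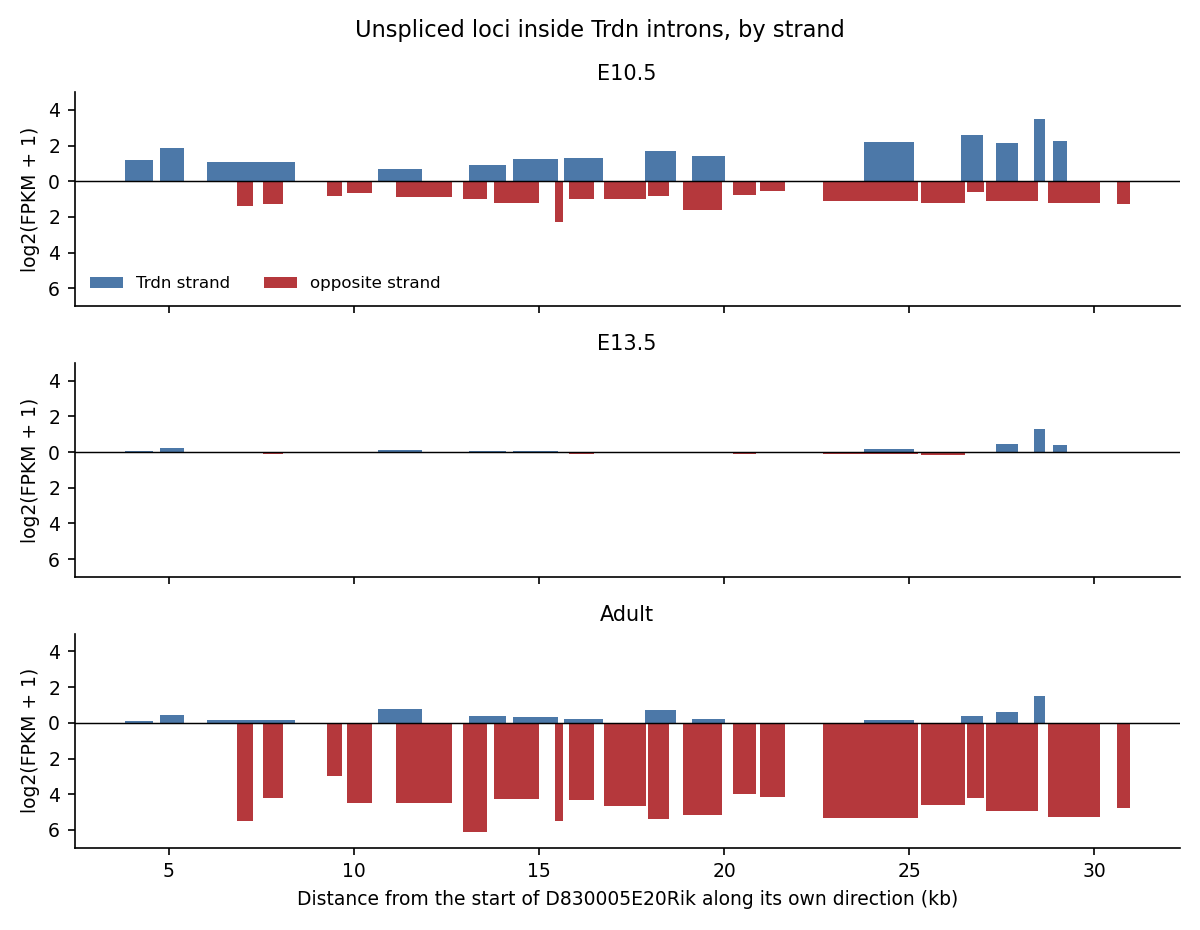
Unspliced loci inside Trdn introns, by distance in kb from the start of D830005E20Rik, with bars of log2(FPKM + 1) upward for the 14 loci on the Trdn strand and downward for the 20 on the opposite strand, 1 panel a library. Bar width is the length of the locus. The opposite-strand loci reach from 6.72 to 69.2 FPKM in the adult and at most 0.106 at E13.5.

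At the other genes fewer loci overlapped or lay within 5000 bp. The opposite-strand locus named Pln (chr10:53345413-53346566) was at 1.92, 1.10 and 4.56 FPKM, at most 0.381% of Pln. The minus-strand gene that encloses Pln, Gm9766, was at 8.85, 6.00 and 20.8 FPKM. The opposite-strand locus named Casq1 (chr1:172212730-172213364) was at 0.769, 0.532 and 2.47 FPKM. It thus came to 0.815% and 0.707% of Casq1 in the embryo but 124% in the adult, where Casq1 was low, and adding it would change the Casq1 difference from -5.0 to -4.14. Whether the authors' quantification assigned fragments by strand is not stated, although the kit was stranded. Vangl1, whose transcripts overlap Casq2 from the other strand, was at 11.9, 8.64 and 3.12 FPKM, lowest in the library in which Casq2 was highest. Pea15a, 3113 bp from Casq1 on the same strand, was at 44.5, 46.0 and 24.3 FPKM, and Trpm4, a cation channel gene 730 bp from Hrc on the other strand, was at 5.43, 5.03 and 4.32. Neither of these neighbours went by 2 in any comparison, unlike Casq1 and Hrc in the adult.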

How the data were processed

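Total RNA of 3 ventricle libraries, 1 a stage, was read from the table that the authors deposited, which holds FPKM values for each merged Cufflinks locus and library. According to the study's methods and the submitters' processing notes, reads were mapped to mm10 with TopHat2 and Bowtie and assembled with Cufflinks with and without UCSC annotation. Versions and options were not given in the sources used here. mm10 is the assembly GRCm38, and promoter sequences came from RefSeq tables of GRCm38.p6.

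A gene was represented by its locus with reference-strand transcripts, or by the one with the highest mean level where there was more than 1. Changes were differences of log2(FPKM + 1). With no replicates, no test was run. Genes were named by a rule: all 10 members, in each pathway group the 2 genes with the highest level and the 2 with the largest change from E10.5 to the adult, loci at 1 FPKM or more that overlap a member or lie within 5000 bp, and the 5 nearest patterns. Strit1, Ppp1r3a, Fkbp1a, Fkbp1b, Ryr1 and Atp2a1 lie outside it and were picked after their values were seen. The members, lists and alternatives were chosen with earlier results of these data known. Results for a few genes that the rule names are not reported here. Older symbols were matched through the synonyms of RefSeq, and Strit1 and Arln had no locus by name. Alternatives covered 2 scalings, a pseudocount of 0.1, sums over all loci of a name, a limit of 5 FPKM and a threshold of 1. Depth was approximated from the most frequent low step of FPKM times length. Scripts ran under Python 3.11.15 with numpy 2.4.6, pandas 2.3.3 and scipy 1.17.1.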

Additional observations from a re-analysis of the deposited data

How the results depend on the processing

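No paired analysis was possible because there is 1 library per stage, with no replicate numbers to share. A value was taken to have moved when it shifted by more than 1.5-fold. Of 168 recomputed counts, medians and ratios 28 moved, and of 150 recomputed changes of single genes 11 moved, while no called change turned its sign. Under median-of-ratios scaling, 1 gene was lower at E13.5 against E10.5 and 1 in the adult against E13.5, beside 0.382% and 6.11% of the mRNA loci. Of the pathway list 5 were higher and 1 lower in the adult against E10.5, beside 7.86% and 6.09%. Scaling without globin and mitochondrial loci gave 1 and 1 for the same counts of the 10 genes, beside 0.636% and 7.21% of the mRNA loci. A pseudocount of 0.1 gave 5 pathway genes higher in the adult against E10.5. The share of the mRNA loci at that pseudocount was not computed, so this count is not a result about the list. A threshold of 1 gave 1 higher and 3 lower of the 10 genes at E13.5 against E10.5. Of the 47 pathway genes 2 were higher and 5 lower there, beside 5.89% and 4.85% of the mRNA loci. In the adult 10 were higher and 10 lower than at E13.5, beside 13% and 32.1%. Against E10.5 the adult had 13 higher and 6 lower, beside 14.8% and 27.3%. Summing all loci of a name gave 0.0114 for Casq1 to Casq2 in the adult, and 0.951 and 2.63 for Trdn to Ryr2 at E10.5 and in the adult. A pseudocount of 1 gave adult ratios of 0.000772 for Sln to Atp2a2 and 0.000417 for Sln to Pln. Against Actn2 alone, the median level of the 10 genes relative to it was -2.13, -2.42 and -1.43 on the log2 scale, in stage order. Subtracting the median of each length class was an alternative chosen after seeing the data. With it, 1 of the 10 genes was lower in the adult against E13.5. Of the pathway list 1 was lower at E13.5 against E10.5 and 1 lower in the adult against E13.5. In the adult against E10.5, 5 of that list were higher and 1 lower. No share of the mRNA loci was computed for the length classes, so these counts cannot be read against it. Apart from the sums, the length classes and the changes of scale, whose construction sets these values, the cause of the shifts was not tested. Levels under about 2 FPKM rest on few fragments, and animal-to-animal variation is not known.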

Other observations

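For each of the 10 genes the 5 mRNA loci nearest in pattern were found among 12404 with no value listed at 0, by the distance between mean-centred log2(FPKM + 1) profiles. With 3 libraries a profile has little room to differ, so likeness is a description of 3 values. Among the 10 genes, Hrc and Atp2a2 were the nearest pair (distance 0.178), and Atp2a2 was also the third nearest of all loci to Hrc. Nearest to Casq2 were F13a1, a blood coagulation factor subunit (0.0411), and S100a1 (0.0431), with Nrap, a protein of the intercalated disc also among the 5 (0.182). Nearest to Atp2a2 were Mypn, a Z-disc protein (0.0669), Ms4a4d, Mylk4, Asb10 and Aox1, and Ms4a4d and Mylk4 also led the list of Hrc. The list of Pln held Slc27a1, a fatty acid transporter (0.0838), and Decr1, an enzyme of fatty acid oxidation (0.0912). That of Ryr2 held Coro6 (0.287), Zbtb20, Trim54 and Epas1, which were lowest at E13.5. Nearest to Casq1 was Bub1, a mitotic checkpoint kinase (0.218), followed by Bmp7. That of Sln held Mylpf, the fast skeletal myosin light chain (0.152), at 29.9, 8.69 and 1.46 FPKM. Jph2 was nearest to Gpt2 (0.000691), Trdn to Abcc8 (0.0204) and Slc8a1 to Fam38a (0.0279).

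Unspliced loci also lay near some of the genes. A locus 57 bp from Atp2a2 on its strand was at 2.36, 0.179 and 0.323 FPKM, and another, 1674 bp away on the other strand, was at 0.138, 1.02 and 0.499. One 4254 bp from Jph2 was at 2.15, 0.141 and 0.603. The nearest of those at Ryr2, 1358 bp away, was at 0.519, 0.101 and 2.96.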
